A study of Mus musculus with 4 samples.

Results

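The CD27 receptor, the ligand subunit lymphotoxin beta and the NF-kB pathway genes around them were followed as 10 named genes across single haematopoietic stem cells (HSCs). The genes were Cd27, Siva1, Ltb, Nfkbia, Nfkb1, Nfkb2, Rela, Relb, Tnfaip3 and Icam1. They were taken by name, with earlier results of these data known, and all 10 were found among the 13742 genes of the count table. The cells came from bone marrow of wild-type mice aged 8 weeks and were sorted as ESLAMSK HSCs, a gate for cells that lack lineage markers and CD48 and carry Kit, Sca-1, CD150 and EPCR (also called CD201). Each of the 4 libraries, which form 1 group, was labelled as holding both CD27- and CD27+ ESLAMSK cells, and the names of the cells gave the library and a number but no sort gate. No comparison between CD27- and CD27+ cells was therefore made, and no cell was placed in a gate from its Cd27 transcript. Nothing in the labels says that the libraries came from separate mice, so the spread between them may be technical.

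CD27, of the tumour necrosis factor (TNF) receptor family, binds CD70 and signals through TRAF adaptors to NF-kB, and SIVA1 was identified as a protein that binds its cytoplasmic tail. Lymphotoxin beta, encoded by Ltb, is a TNF family ligand subunit that anchors lymphotoxin alpha at the cell surface and acts on the lymphotoxin beta receptor. NF-kB dimers are built from RELA, RELB and the processed products of Nfkb1 and Nfkb2. In resting cells they are held in the cytoplasm by inhibitors such as IkB alpha, the product of Nfkbia. Nfkbia, Tnfaip3 (A20, a ubiquitin-editing enzyme that damps the pathway) and Icam1 (an adhesion molecule) are known targets of NF-kB, and so is Ltb in lymphoid cells.

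Promoter sequences are shown for Ltb and Nfkbia, the pair of members whose transcripts varied together most, for Tnip1, the pathway regulator nearest to Ltb in the same cells, and for Cd27, whose rho with Ltb had no steady sign. Each runs over the 250 bases before the start site of RefSeq (GRCm38.p6), 5′ to 3′ on the strand of the gene. Capitals mark matches to the kappa B consensus on either strand. The stretch of Ltb lies at chr17:35194257-35194506 on the plus strand, that of Nfkbia at chr12:55492648-55492897 on the minus strand, that of Tnip1 at chr11:54962941-54963190 on the minus strand and that of Cd27 at chr6:125237028-125237277 on the minus strand.
Ltb: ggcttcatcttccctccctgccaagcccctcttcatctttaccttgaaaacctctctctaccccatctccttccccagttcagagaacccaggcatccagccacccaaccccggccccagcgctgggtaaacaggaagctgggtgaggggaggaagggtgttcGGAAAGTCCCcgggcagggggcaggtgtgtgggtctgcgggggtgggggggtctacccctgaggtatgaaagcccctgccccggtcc
Nfkbia: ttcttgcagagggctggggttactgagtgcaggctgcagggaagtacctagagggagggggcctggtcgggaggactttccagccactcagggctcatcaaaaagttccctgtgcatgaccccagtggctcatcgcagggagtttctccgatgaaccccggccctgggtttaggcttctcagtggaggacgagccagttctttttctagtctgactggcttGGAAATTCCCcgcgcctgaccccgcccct
Tnip1: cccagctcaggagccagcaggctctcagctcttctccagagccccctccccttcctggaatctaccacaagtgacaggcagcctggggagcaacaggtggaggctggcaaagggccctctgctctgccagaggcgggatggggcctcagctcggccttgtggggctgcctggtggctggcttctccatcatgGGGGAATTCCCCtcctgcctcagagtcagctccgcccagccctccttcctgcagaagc
Cd27: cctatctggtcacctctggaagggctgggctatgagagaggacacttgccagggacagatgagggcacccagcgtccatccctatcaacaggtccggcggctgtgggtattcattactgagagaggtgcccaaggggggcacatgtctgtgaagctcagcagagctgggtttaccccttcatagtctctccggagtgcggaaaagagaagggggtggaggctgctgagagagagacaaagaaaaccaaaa
The capitals begin 87 bases before the start in Ltb and 29 bases before it in Nfkbia. In Tnip1, whose product binds A20, 3 overlapping matches begin 58, 57 and 56 bases before the start. The Cd27 window held no match, and neither did those of Siva1, Rela and Icam1, which are not shown. Of the 10 members, 8 had a window of 250 bases before to 50 after a start, 11 windows in all, and no window was found for Nfkb1 and Relb. A match was present in 6 of the 11 windows, those of Ltb, Nfkbia, Nfkb2 and Tnfaip3, and in 8.46% of 32851 RefSeq windows of the same length. By gene this was 4 of the 8 with a window. Windows 2 and 3 of Nfkb2 overlap and share 1 match, so the 11 windows are not independent. The members were taken by name and hold known targets of NF-kB, so the 2 shares are not a like comparison. A match is a description of letters, and its absence says nothing about binding. The sequences shown were chosen by rho, and whether a match goes with rho was not tested.

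The libraries kept 74, 75, 71 and 72 cells, 292 of 297 in all, with median counts per cell from 65416 to 142675. Of the HSC markers, all 7 of the list had counts, and they summed to 2591 ± 220 CPM (summed counts of a library scaled to the same total, SD, n = 4). Among the genes of the gate, Ly6a (Sca-1) had a count in 271 cells, Kit in 248, Procr (EPCR) in 222 and Slamf1 (CD150) in 75. Having a count does not by itself show the label. Of other cell types, 7 of 10 B cell markers were in the table and summed to 106 ± 6 CPM, nearly all from Cd79b, whereas Ms4a1 had a count in 1 cell. Of the T and NK cell markers 6 of 12 summed to 82.8 ± 44.7 CPM, of the macrophage markers 4 of 8 to 26.5 ± 9.7, of the stromal markers 7 of 8 to 30.5 ± 17.0, of the neutrophil markers 7 of 7 to 127 ± 39 and of the mast cell and basophil markers 1 of 8 to 0.067 ± 0.13. All 10 endothelial markers, many of which HSCs share, summed to 1119 ± 109 CPM, with Cdh5, a defining marker, in 2 cells.

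Before the results, 2 runs of consecutively numbered cells stand apart. Cells numbered 25 to 32 in library 2 and 9 to 16 in library 4, 15 kept cells, resembled each other within their run (mean correlation 0.149 and 0.260, against -0.022 to 0.051 in the other runs of 8). These cells carried more Cd27 and less Ltb and Nfkbia than their libraries. Mean CPM over the cells of each run was 475 and 354 for Cd27, 26.9 and 11.5 for Ltb, and 155 and 0.94 for Nfkbia. Values without these cells stand beside the rank correlations, joint counts and splits below where leaving them out turned a sign or moved a value by over 1.5 times, and beside the main results.

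The receptor gene Cd27 (chr6:125232622-125237010, minus strand) stood at 175, 207, 223 and 150 CPM in libraries 1 to 4. Its level varied between libraries with a coefficient of variation of 17.3%, above the median coefficient of the genes above 100 CPM. In cells with a count, the median level was 276, 231, 280 and 252 CPM and the highest 1575, 1297, 1073 and 1324 CPM. The 10 highest cells held 23.9% of all Cd27 counts. Without the runs the mean was 182 ± 34 CPM, against 189 ± 33 with them (SD, n = 4 each). All of Cd27 lies inside Vamp1 on the other strand, and whether the counting used strand is not stated in the sources used here. Vamp1 stood at 8.60 ± 7.99 CPM, with a count in 25 cells, 18 of which also had Cd27, and its mean Spearman rho with Cd27 was 0.042. Siva1 (chr12:112644679-112649149, plus strand) stood at 164, 165, 205 and 178 CPM and had a count in 162 of 292 cells.

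The ligand gene Ltb (chr17:35194439-35196320, plus strand) was found in most cells of every library. It stood at 743, 741, 696 and 601 CPM, a mean of 695 ± 66 (SD, n = 4), and at 714 ± 64 without the runs. The share of cells with a count was 89.2%, 85.3%, 93.0% and 90.3% in libraries 1 to 4, with exact (Clopper-Pearson) 95% binomial intervals that span 75.3 to 97.7 across the libraries. Intervals cover counting error only. Single cells reached 7211, 6924, 3952 and 3044 CPM, with medians of 514, 622, 639 and 553 CPM among cells with a count. The cells at the top of libraries 1 and 2 held 19.4% and 17.8% of all Ltb counts there.

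The inhibitor gene Nfkbia (chr12:55489410-55492647, minus strand) stood at 590, 695, 613 and 568 CPM, a mean of 617 ± 56 (SD, n = 4), and at 633 ± 65 without the runs. The share of cells with a count was 87.8%, 78.7%, 84.5% and 79.2%. The 10 highest cells held 31.1% of its counts, and the highest cell of each library stood between 4005 and 6230 CPM. Ltb and Nfkbia were among the steadier members between libraries, with coefficients of variation of 9.57% and 9.01%.

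The transcription factor genes were found in fewer cells. Nfkb1 (chr3:135584655-135691547, minus strand), which encodes p105 and p50, stood at 129, 79.2, 87.6 and 153 CPM and had a count in 119 cells. Its coefficient of variation between libraries was 31.1%, above the 90th percentile of 24.0% among the 1930 genes above 100 CPM. With a mean of 112 CPM, Nfkb1 lies near the lower bound of that class. Among genes between 20 and 100 CPM the median was 26.5% and the 90th percentile 47.5%, so its spread is not unusual beside those genes. Rela (chr19:5637483-5648130, plus strand), which encodes p65, stood at 51.3, 93.1, 86.1 and 68.5 CPM and had a count in 126 cells. Nfkb2 (chr19:46304320-46312385, plus strand), which encodes p100 and p52 of the alternative pathway, stood at 24.8, 23.4, 24.8 and 18.8 CPM and had a count in 64 cells. Its 3′ end overlaps Psd on the other strand over 299 bases. Psd had a count in 29 cells, 21 of which also had Nfkb2, and the mean rho was 0.32 ± 0.079 (SD, n = 4), so part of either count cannot be told apart. Relb (chr7:19606217-19629438, minus strand), the partner of p52, stood at 41.3, 50.9, 16.4 and 19.6 CPM and had a count in 39 cells. It was higher in libraries 1 and 2 than in libraries 3 and 4, but 10 cells held 71.1% of its counts, and single cells held 37.1% to 59.1% of a library's Relb counts.

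Of the target genes, Tnfaip3 (chr10:19000910-19015657, minus strand) differed most between libraries. It stood at 2.56, 16.4, 57.3 and 14.8 CPM, from 19, 133, 301 and 166 counts, and the highest library was 22.4 times the lowest. Its coefficient of variation was 105%, and that of Relb 52.2%. Among the 4746 genes between 20 and 100 CPM the median was 26.5% and the 90th percentile 47.5%, so both members lie beyond the spread of most genes of that level. Tnfaip3 was found in 40 cells, between 6.76% and 22.5% of a library, and 10 cells held 71.9% of its counts. Without library 3 its mean was 11.3 ± 7.6 CPM (SD, n = 3), against 22.8 ± 23.8 with all 4 libraries. Icam1 (chr9:21015985-21028817, plus strand) stood at 28.7, 38.8, 39.0 and 34.2 CPM and had a count in 51 cells, the 10 highest of which held 56.2% of its counts. An antisense gene, Gm47079, overlaps 511 bases of Icam1.

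**Figure D1:**
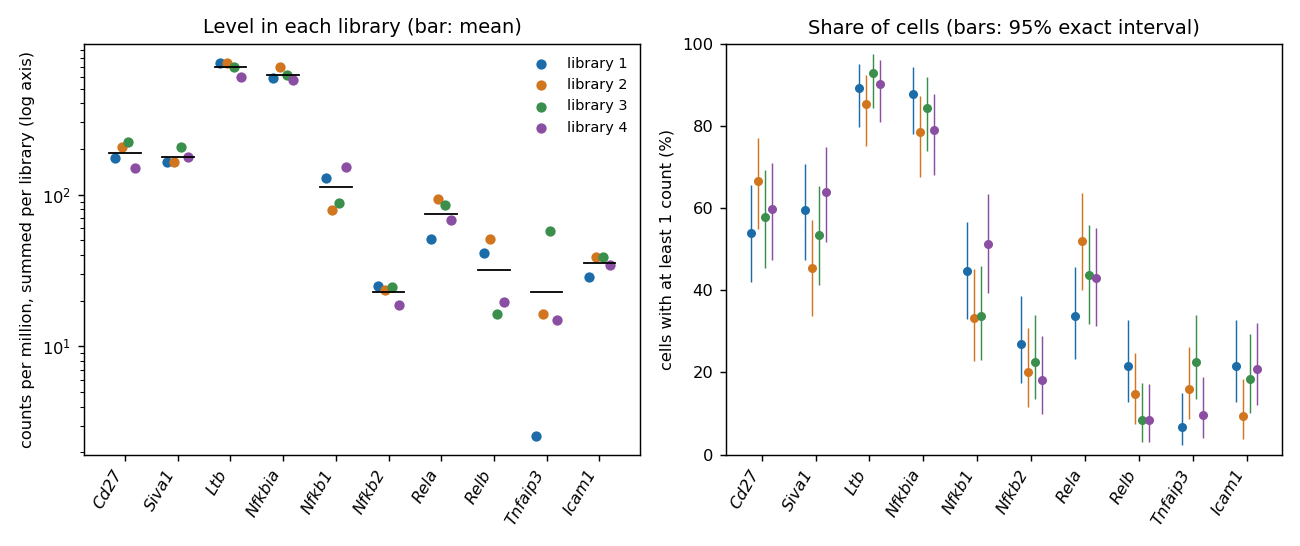
Levels of the 10 genes in CPM on a log axis (left, points for libraries, bar for the mean of 4) and the share of cells with at least 1 count in percent (right, bars are 95% exact binomial intervals). Ltb and Nfkbia lie close together across libraries, whereas Tnfaip3 spreads from 2.56 to 57.3 CPM.

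A median cell of each library had a count for 4 of the 10 genes, with a range of 0 to 8 across the 276 cells that could be thinned at random to 30000 counts (72, 70, 64 and 70 cells). Thinning sets depth equal, and the shares, joint counts, rank correlations and splits below use it. It left Ltb in 85.9% ± 1.6 of cells and Nfkbia in 73.2% ± 4.0 (SD, n = 4), against 89.4% ± 3.2 and 82.5% ± 4.4 unthinned. A cell without a count is not thereby shown to lack the transcript.

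Ltb and Nfkbia, the ligand and the inhibitor, varied together. Their Spearman rho across the cells of a library was 0.23, 0.35, 0.27 and 0.43, a mean of 0.32 ± 0.088 (SD, n = 4), and it was 0.28 ± 0.035 without the runs. Among the 4554 other genes with a count in at least 20% of thinned cells, Nfkbia ranked 4 for mean rho with Ltb, and Ltb ranked 1 for mean rho with Nfkbia. A rho positive in all 4 libraries was seen with Ltb for 10.5% of these genes and with Nfkbia for 8.01%. Points of a library share its preparation and the depth set by thinning, so the rho values are descriptions. Nfkbia had a count in 82.0%, 79.7%, 75.0% and 75.4% of cells with Ltb, against 54.5%, 27.3%, 75.0% and 22.2% of the 11, 11, 8 and 9 cells without Ltb. In library 3 the shares were the same, while in the other libraries more of the cells with Ltb had Nfkbia. Without the runs the shares were 80.7% with Ltb against 33.3% of 6 cells without it in library 2, and 76.7% with Ltb against 2 of the 4 cells without it in library 4. Over all libraries 185 cells had both, where 173 would be expected from the shares alone, and without the runs 184 cells had both, where 178 would be expected.

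**Figure D2:**
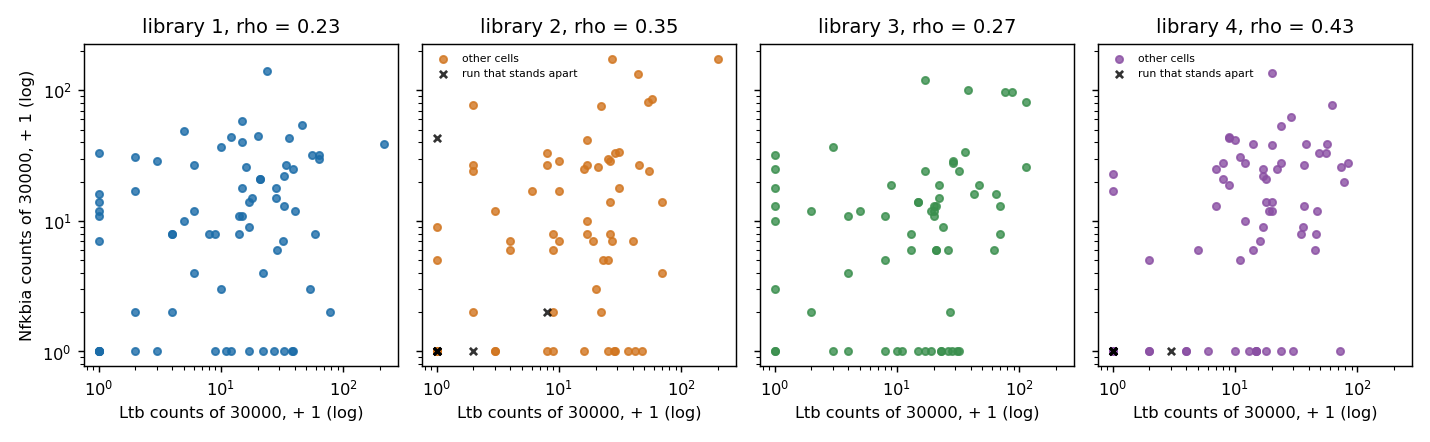
Counts of Nfkbia (y) against Ltb (x) in single cells thinned to 30000 counts, each plus 1 on log axes, per library, with crosses for cells of the 2 runs that stand apart. The Spearman rank correlation is 0.23 to 0.43, cells with neither transcript sit at the lower left corner, and the cells of the runs lie at low Ltb.

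Of the 45 pairs of members, 9 had a positive rho in all 4 libraries and 5 a negative rho in all 4, and the mean rho of 30 pairs lay within 0.1 of 0. Without the runs 8 pairs were positive and 6 negative in all 4, and the mean rho of 7 pairs, each within 0.043 of 0 with all cells, turned in sign. The background, over the genes compared with each member, is as follows. The share positive in all 4 was 7.99% with Cd27, 13.1% with Siva1, 11.8% with Nfkb1, 8.91% with Nfkb2, 9.51% with Rela, 6.45% with Relb, 3.89% with Tnfaip3 and 9.33% with Icam1. The share negative in all 4 was 3.07% with Siva1, 6.7% with Ltb, 6.48% with Nfkbia, 3.73% with Nfkb1, 4.9% with Nfkb2, 3.56% with Rela, 5.91% with Relb, 8.87% with Tnfaip3 and 4.54% with Icam1. Tnfaip3 and Icam1, both NF-kB targets, had rho values of 0.18, 0.032, 0.47 and 0.36, a mean of 0.26 ± 0.19. Both were found in 12 cells, where 4.02 would be expected, with 6 of these in library 3. Icam1 had a count in 44.2% ± 25.4 of cells with Tnfaip3 and 10.9% ± 3.0 of cells without it (SD, n = 4). Under another random thinning the mean rho was 0.14, so this pair rests on few cells. Nfkbia and Tnfaip3, the inhibitor and the deubiquitinase of the feedback arm, had rho values of 0.0044, 0.19, 0.25 and 0.34, a mean of 0.20 ± 0.14. The alternative pathway gene Nfkb2 was positive with Ltb in all 4 libraries (0.15 ± 0.045) and with Nfkbia in all 4 (0.13 ± 0.078). Ltb and Nfkb1 had a mean rho of -0.071 ± 0.11, negative in 3 of 4 libraries. Without the runs it was -0.11 ± 0.092, negative in all 4. Nfkb2 and Relb, whose products pair, were found together in 12 cells where 5.71 would be expected, with a mean rho of 0.18 ± 0.20, positive in 3 of 4 libraries and -0.11 in library 4. Relb and Icam1 were found together in 2 cells where 4.28 would be expected.

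Cd27 and Ltb had rho values of both signs, -0.15, 0.0032, 0.078 and -0.058. Their mean was -0.033 ± 0.098 with all cells and 0.016 ± 0.12 without the runs, which were high in Cd27 and low in Ltb. The rho of Cd27 was negative in all 4 libraries with Nfkbia (-0.13 ± 0.087, and -0.094 ± 0.061 without the runs), Nfkb2 (-0.13 ± 0.051), Siva1 (-0.092 ± 0.069) and Tnfaip3 (-0.059 ± 0.060), and these 4 stayed negative in all 4 libraries without the runs. Negative values in all 4 libraries were seen with Cd27 for 6.52% of 4554 genes, and 2 of the 5 members among those genes, Siva1 and Nfkbia, were of this kind. Its highest mean rho among the members was with Nfkb1, at 0.22, 0.17, 0.31 and -0.039 (0.16 ± 0.15), and it was 0.20 ± 0.13 and positive in all 4 without the runs. Nfkb1 had a count in 44.3% ± 4.9 of cells with Cd27 and 29.5% ± 15.3 of cells without it, and library 4 went the other way. Without the runs the shares were 47.1% ± 5.5 with Cd27 and 29.3% ± 16.6 without it.

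**Figure D3:**
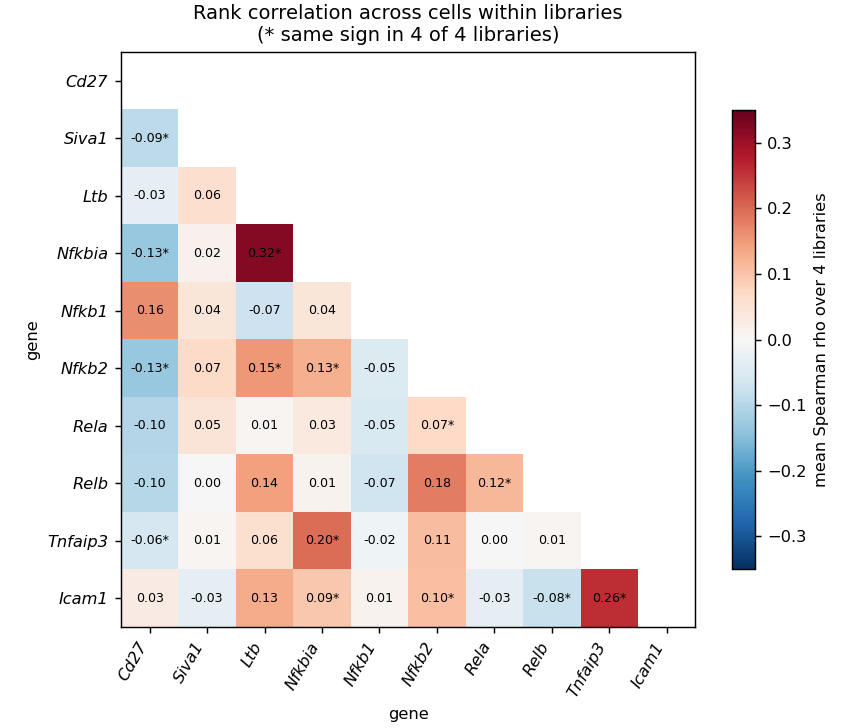
Mean Spearman rho over 4 libraries for each pair of the 10 genes, colour scale from blue (negative) to red (positive), with an asterisk for the same sign in 4 of 4 libraries. Ltb with Nfkbia (0.32) and Tnfaip3 with Icam1 (0.26) are the highest of the 45 pairs.

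Ltb also varied with some adaptors and regulators of the pathway. The gene lists used here and below were chosen with earlier results of these data known. Of 33 listed NF-kB adaptors, kinases and regulators, 16 had a count in at least 20% of thinned cells, and 8 of the 16 had a positive rho with Ltb in all 4 libraries. The background is the 10.5% given above, and the median rho of the 16 was 0.093, against 0.00905 over all genes. The 8 were Tnip1 (0.28 ± 0.11), Nfkbie (0.23 ± 0.12), Traf1 (0.19 ± 0.12), Birc3 (0.18 ± 0.13), Myd88 (0.14 ± 0.057), Tnip2 (0.11 ± 0.031), Birc2 (0.11 ± 0.071) and Ikbkb (0.079 ± 0.072). Nfkbie encodes the inhibitor IkB epsilon, Birc2 and Birc3 the ubiquitin ligases cIAP1 and cIAP2, Traf1 an adaptor of TNF receptors and Ikbkb the kinase IKK beta. Without the runs 7 of the 16 were positive in all 4, against a background of 7.16%, and Ikbkb stood at 0.027 ± 0.11, positive in 3 of 4. Irak1, a kinase of the interleukin-1 and Toll-like receptor arm, had a negative rho in all 4 (-0.25 ± 0.12). Of 14 NF-kB target genes found as often, 7 were positive in all 4 libraries, namely Tap1, Irf1, Sod2, Ninj1, Nfkbie, Birc3 and Traf1, with a median rho over the 14 of 0.084, and of 0.039 without the runs. Without the runs 5 of the 14 were positive in all 4, and 1, Xiap, was negative in all 4, against a background of 8.37%. Ninj1 (0.041 without the runs, 0.12 with all cells) and Irf1 (0.10 and 0.14) were not among the 5, and Sod2 (0.070 and 0.12) was. Nfkbie, Birc3 and Traf1 are on both lists. The median of the regulators was 0.11 without the runs.

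No difference between members was tested on these lists. With Cd27, 0 of the 16 regulators were positive in all 4 libraries, and Cyld, a deubiquitinase, was negative in all 4 (-0.082 ± 0.041). Without the runs Cyld was no longer negative in all 4 (-0.071 ± 0.073), and Myd88 was positive in all 4. Of the 14 targets Psmb9 alone was positive in all 4 (0.057 ± 0.034). With Nfkbia, Tnip1, Tnip3 and Nfkbie were positive in all 4 and Commd1 was negative in all 4, out of 16, and Ier3, Xiap and Nfkbie were positive out of 14 targets. Immediate early and dissociation genes, known to respond to tissue handling, were positive with Nfkbia in all 4 libraries for 6 of 15, namely Jun, Junb, Ier2, Egr1, Klf6 and Btg2, and their part in the values for Nfkbia was not tested. Without the runs 1 of the 14 targets, Nfkbie, and 4 of the 15 immediate early genes, Jun, Junb, Klf6 and Btg2, were positive with Nfkbia in all 4, against a background of 5.84%. Of the 16 regulators, those positive in all 4 libraries numbered 7 with Icam1, 3 with Rela, 2 with each of Nfkb2 and Relb, 1 with each of Nfkb1 and Tnfaip3 and 0 with Siva1. Birc3 had a mean rho of 0.20 ± 0.070 with Icam1, and the count with Icam1 was 6 without the runs. Without the runs the count was 3 with Nfkb1, 1 with Relb, 1 with Siva1 and 0 with Tnfaip3. Regulators negative in all 4 numbered 3 with Tnfaip3 (2 without the runs) and 1 with each of Siva1 and Rela. Of the 14 targets, 4 were positive in all 4 with Icam1, 2 with each of Nfkb1, Nfkb2, Relb and Tnfaip3, and 1 with each of Siva1 and Rela. Targets negative in all 4 numbered 1 with each of Nfkb2, Rela and Icam1. Without the runs 1 target was positive in all 4 with Relb, and 2 were negative in all 4 with Siva1. Of the 15 immediate early and dissociation genes, 7 were positive in all 4 with Tnfaip3 (6 without the runs), 4 with Rela (2 without), 3 with each of Ltb and Nfkb2 (1 and 4 without), 2 with Icam1 (1 without), 1 with each of Siva1 and Relb and 0 with Cd27 and Nfkb1. Those negative in all 4 numbered 4 with Nfkb1 (5 without the runs), 2 with Ltb (3 without), 1 with Cd27 (2 without) and 1 with Relb. With Ltb the median rho of the 15 was 0.047, and -0.013 without the runs. The part of the immediate early genes in these values was not tested. Backgrounds with all cells are given above. Without the runs the share positive in all 4 was 10.1% with Cd27, 11% with Siva1, 10.3% with Nfkb1 and 7.88% with Nfkb2. It was 8.5% with Rela, 5.82% with Relb, 4.59% with Tnfaip3 and 8.25% with Icam1. The share negative in all 4 was then 5.56% with Cd27, 3.67% with Siva1, 4.61% with Nfkb1, 6.1% with Relb and 9.11% with Tnfaip3. Counts of 1 among 14 to 16 genes are not read as results about the lists.

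**Figure D4:**
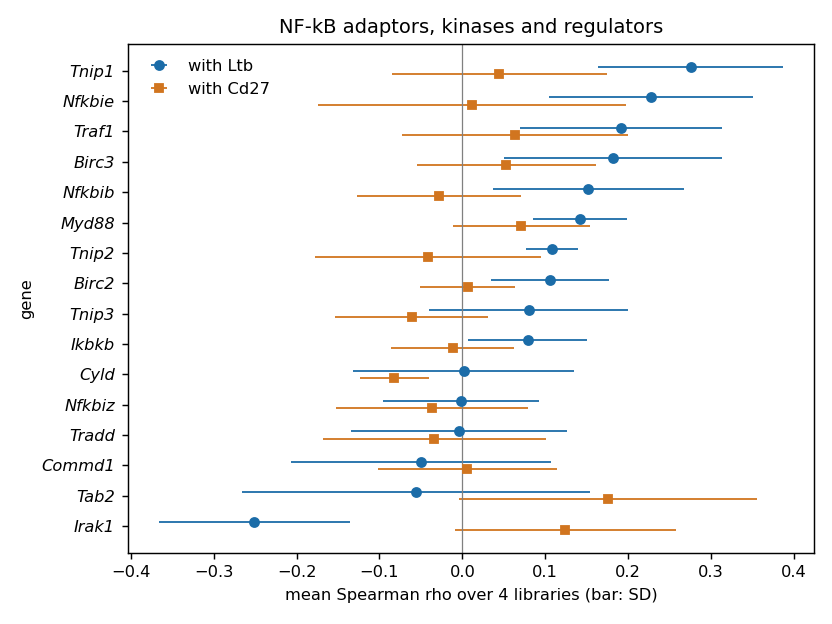
Mean Spearman rho over 4 libraries (bar: SD) of 16 NF-kB adaptors, kinases and regulators with Ltb (circles) and with Cd27 (squares). With Ltb, Tnip1 lies at 0.28 and Irak1 at -0.25, whereas with Cd27 the list is spread around 0.

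The ligand and receptor partners were mostly low. Cd70, the ligand of CD27, had a count in 1 of 292 cells and Tnf in 6. Ltbr, the receptor for lymphotoxin, stood at 34.1 ± 8.5 CPM with a count in 77 cells, and Tnfrsf1a at 117 ± 21 CPM with a count in 164 (SD, n = 4). Of the 3 listed TNF family genes found in at least 20% of thinned cells, Tnfrsf18, which encodes GITR, was positive with Cd27 in all 4 libraries (0.22 ± 0.10, and 0.19 without the runs). Of the 4 lymphoid and multipotent progenitor genes, Cd34 (0.14 ± 0.097) and Emb (0.16 ± 0.13) were positive in all 4. Of 18 HSC identity genes 8 were negative with Cd27 in all 4, with Vwf at -0.24 ± 0.058, and the median of the 18 was -0.057, against 0.00696 over all genes. Without the runs 8 of the 18 were negative in all 4, against a background of 5.56%. In that setting 2 of the 18, Hlf and Tal1, were positive in all 4, against a background of 10.1%. The 8 were not the same genes, as Hoxa9 and Gata2 left them and Pdzk1ip1 and Ifitm3 came in. Vwf stood at -0.26 ± 0.054 without the runs, and the median was -0.053, against 0.014 over all genes.

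The genes nearest to Cd27 in mean rho over 4 libraries were Rnase6 (0.29 ± 0.16), Ramp1 (0.28 ± 0.11) and Taldo1 (0.27 ± 0.18) at the high end, and Xdh (-0.27 ± 0.025), Apoe (-0.27 ± 0.068) and Nt5c3 (-0.24 ± 0.096) at the low end. For Ltb they were Shisa5 (0.42 ± 0.11), H2-D1 (0.35 ± 0.21) and H2-K1 (0.34 ± 0.16), the last 2 being genes of MHC class I heavy chains, and at the low end Myb (-0.28 ± 0.13), a transcription factor of progenitors, Rpl41 (-0.28 ± 0.087) and Npm1 (-0.25 ± 0.080). For Nfkbia they were Ltb, Fth1 (0.25 ± 0.10), the ferritin heavy chain, and Ddx5 (0.25 ± 0.092), and at the low end Pdzd11 (-0.26 ± 0.093), Myl10 (-0.23 ± 0.12) and Myl12b (-0.21 ± 0.070). Each of these rho values kept its sign without the runs. Among the 10 highest genes of each, Ltb and Nfkbia shared 2, H2-T23 and Ddx5, and among the 10 lowest they shared Npm1, whereas Cd27 shared 0 with either at both ends. These shared genes were named after their values were seen.

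Nfkbia was the gene with the lowest p when cells were split by Ltb and summed by library. The split used the thinned counts that gave the rho of Ltb and Nfkbia, so it is another view of that association. Too few cells lacked Ltb in libraries 3 and 4 for a split by presence, so cells above the median of Ltb in their library (134 cells) were set against cells at or below it (142 cells). Nfkbia stood at 663, 1031, 711 and 813 CPM above the median, against 435, 347, 407 and 358 CPM at or below it. Every library was higher above the median, and the ranges did not overlap. The means were 805 ± 163 and 387 ± 42 CPM (SD, n = 4), a log2 fold change of 1.03 ± 0.16 (SE). Nfkbia ranked 1 of 8445 genes by p but did not pass the threshold of 0.05, with an edgeR quasi-likelihood p adjusted by Benjamini-Hochberg over all genes of 0.0797. It passed with DESeq2 (adjusted p = 8.68e-07) and in edgeR without the runs, all 13 thinned cells of which lie at or below the median (adjusted p = 0.0258, log2 fold change 0.95). Without library 4 the lowest edgeR adjusted p of any gene was 0.978, and over all alternatives the adjusted p of Nfkbia ran from 7.01e-07 to 0.978. No gene passed in this split in either direction (0.0% of 8445 higher and 0.0% lower, 433 at an unadjusted p below 0.05, and 10 higher and 5 lower with DESeq2), so 0 of 9 other members passed.

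The other members did not pass in the Ltb split either. Relb stood at 70.8, 65.8, 30.2 and 16.7 CPM above it, against 14.5, 26.7, 10.4 and 9.26 CPM at or below it, a log2 fold change of 1.49 ± 0.57 (edgeR adjusted p = 0.911). Nfkb2 stood at 35.4, 41.0, 28.2 and 33.4 CPM above it, against 4.76 to 18.8 CPM at or below it (log2 fold change 1.41 ± 0.69, edgeR adjusted p = 0.922). Both were higher in 4 of 4 libraries. Without the runs the log2 fold changes were 1.17 for Relb and 1.12 for Nfkb2, and 2 of the 9 members were higher in 4 of 4, against 3 with all cells. The share of all genes higher in 4 of 4 is not given here, so these counts have no background. Icam1 was higher in 3 of 4, at 48.7 ± 19.4 CPM above the median and 19.4 ± 12.3 at or below it (edgeR adjusted p = 0.922). Cd27 stood at 194 ± 18 and 212 ± 25 CPM (log2 fold change -0.14 ± 0.20, edgeR adjusted p = 0.960), and the log2 fold change was 0.016 without the runs. The median log2 fold change was 0.15 over the 28 regulators tested and 0.50 over the 19 targets, against -0.00949 over all genes. Without the runs the medians were 0.10 for the regulators and 0.47 for the targets.

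The reverse split gave Ltb first. Cells with an Nfkbia count (202 cells) carried 762, 786, 880 and 822 CPM of Ltb, against 421, 397, 492 and 330 CPM in cells without one (74 cells). The means were 813 ± 51 and 410 ± 67 CPM, with no overlap of libraries, and the log2 fold change was 0.99 ± 0.18 (SE). Ltb ranked 1 of 8451 genes and did not pass, with an edgeR adjusted p of 0.112, of 0.199 without the runs, and from 1.65e-05 (DESeq2) to 0.999 over the alternatives. No gene passed in either direction (0.0% each, 384 at an unadjusted p below 0.05, and 4 higher and 1 lower with DESeq2). Cd27 was lower in 4 of 4 libraries, at 180 ± 13 CPM with Nfkbia and 263 ± 84 CPM without it (log2 fold change -0.52 ± 0.26, edgeR adjusted p = 0.998), and the log2 fold change was -0.33 without the runs, of whose 13 cells 11 lack Nfkbia here. Summed immediate early and dissociation genes stood at 19911 ± 2893 CPM with Nfkbia and 15200.5 ± 2396 CPM without it, higher in 4 of 4 libraries. In library 4 these sums were 20030 against 15198 CPM with all cells, and 20030 against 19377 CPM without the runs. Summed macrophage markers were lower with Nfkbia in 4 of 4 libraries, at 13.1, 7.33, 29.2 and 18.1 CPM, against 41.7, 28.3, 33.3 and 80.3 CPM without it. Leaving out the runs gave 18.1 against 47.9 CPM in library 4. The median of genes detected per thinned cell was 2628 ± 99 with Nfkbia and 2467 ± 170 without it, higher in 3 of 4 libraries. Leaving out the runs turned library 2, at 2486 with Nfkbia against 2520 without it, and library 4 stood at 2684 against 2664.5. The part of these 3 measures in the result was not tested. The 2 splits use the same cells, libraries and thinned counts as the rho of Ltb and Nfkbia, so they are not separate support for it.

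No other member passed when 145 cells with a Cd27 count were set against 131 without one. Cd27 counts were unevenly spread over the order of cell numbers, from 1 of 7 to 7 of 7 cells in runs of library 3. The test had library as a block but not the run of cell numbers, and the part of the run in this split was not tested. Of 8538 genes tested, 0 were higher (0.0%) and 5 lower (0.0586%) at an edgeR adjusted p below 0.05, and 0 of 9 members were among them (452 genes had an unadjusted p below 0.05, and DESeq2 called 8 higher and 16 lower). Tnfaip3 stood at 1.91, 9.76, 26.1 and 2.08 CPM with Cd27, against 4.50, 54.0, 61.7 and 16.7 CPM without it. It was lower in 4 of 4 libraries, the groups overlapped, and the log2 fold change was -1.98 ± 0.76 (edgeR adjusted p = 0.888). Nfkb1 stood at 198, 83.0, 117 and 127 CPM with Cd27, against 79.3, 58.6, 46.9 and 184 CPM without it (log2 fold change 0.62 ± 0.33, edgeR adjusted p = 0.959). Ltb stood at 685 ± 144 and 705 ± 112 CPM (log2 fold change -0.078 ± 0.17) and Nfkbia at 561 ± 33 and 633 ± 129 CPM (-0.18 ± 0.15). Without the runs these 2 log2 fold changes were -0.012 for Ltb and -0.091 for Nfkbia.

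The 5 genes that were lower in cells with Cd27 were Klf6, Apoe, Cyr61, Ramp2 and Ppp1r15a. Klf6, an early response transcription factor, stood at 808, 896, 835 and 732 CPM with Cd27, against 1840, 1808, 1243 and 1304 CPM without it (log2 fold change -0.93 ± 0.13, edgeR adjusted p = 0.00915). Apoe, which encodes a lipid carrier, stood at 1202 ± 175 and 2083 ± 222 CPM (log2 fold change -0.83 ± 0.11, edgeR adjusted p = 0.00915). Ppp1r15a, a stress response gene, stood at 750 ± 78 and 1391 ± 283 CPM, and Ramp2, which encodes a receptor activity-modifying protein, at 23.9 ± 16.3 and 113 ± 28 CPM. Cyr61 stood at 1.91, 0, 0 and 1.04 CPM with Cd27, against 135, 56.3, 17.3 and 14.9 CPM without it. The 5 were lower in 4 of 4 libraries, also without the runs. With any 1 library left out 1 or 2 of them still passed, and under another random thinning 3 did. With counts as deposited in place of thinned counts none passed. The log2 fold change of Ramp2 was -2.40, and it ran from -2.70 to -1.25 over 12 alternatives, of which 5 passed. That of Cyr61 was -6.05, from -6.76 to -3.02, and 7 of 12 passed. For Ppp1r15a it was -0.90, from -1.11 to -0.75, and 6 of 12 passed. Summed immediate early and dissociation genes stood at 14861, 16435, 15674 and 17093 CPM with Cd27, against 24999, 24772, 16064 and 19706 CPM without it. Leaving out the runs gave 17634 against 26428 CPM in library 2 and 19372 against 20228 CPM in library 4. The median log2 fold change of the 17 such genes tested was -0.47, against 0.015 over all genes, and their part in the result was not tested. The median of genes detected per thinned cell was 2626 ± 107 with Cd27 and 2590 ± 118 without it.

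**Figure D5:**
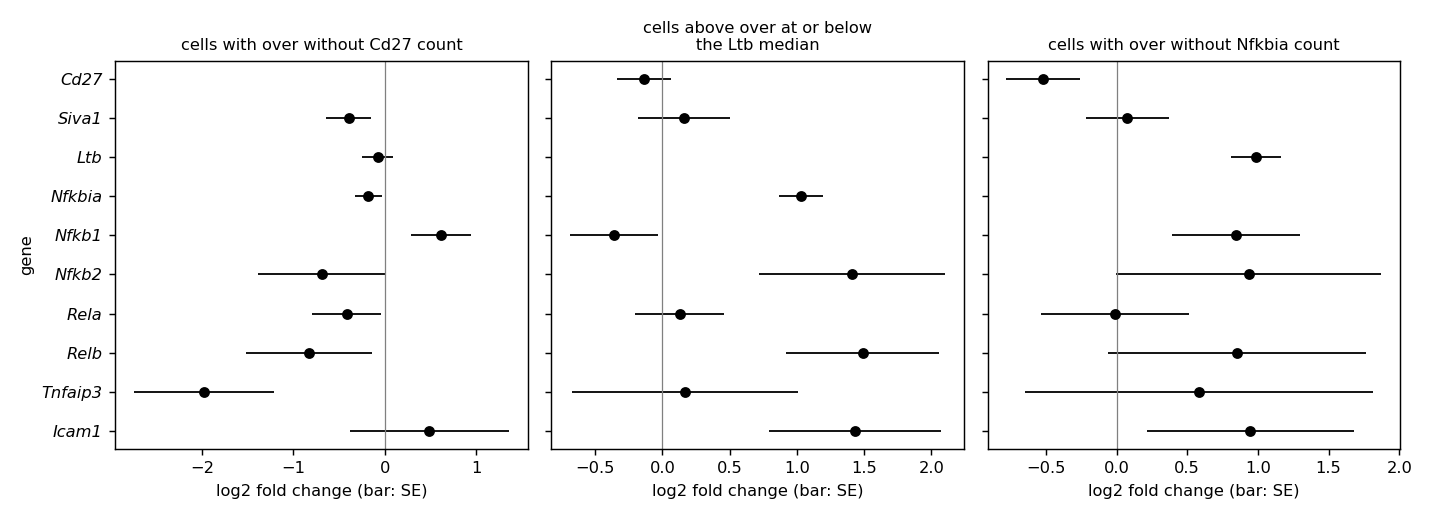
Log2 fold change (bar: SE) of the members between cells with and without a Cd27 count (left), above and at or below the median of Ltb (middle), and with and without an Nfkbia count (right), 4 libraries each. The points of Nfkbia in the middle panel (1.03) and of Ltb in the right panel (0.99) have short bars away from 0, and none of the points passed an adjusted p of 0.05.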

How the data were processed

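Single ESLAMSK HSCs were sorted into 8-strip tubes with pulse settings that avoid doublets and profiled by STRT-seq, which tags the cDNA of each cell during reverse transcription and enriches 3′ ends, per the labels' protocols. The authors deposited unnormalized counts for each gene in each cell. The submitters' processing notes name GRCm38, HTSeq 0.9.1, HISAT2 2.1.0 and Trimmomatic 0.36. Collapse of molecular identifiers is not stated in the sources used here, the median nonzero count was 18 and 14.3% of nonzero counts were 1, so a count is not a molecule and intervals cover counting error only. Cells are named by library and number, so shared barcodes could not be counted. No doublet caller was run.

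Cells with at least 10000 counts and 1000 genes were kept, 292 cells of 10653 to 346876 counts, none above 20% mitochondrial counts. CPM came from counts summed per library. For joint counts, Spearman rho and splits each cell was thinned to 30000 counts (seed 1), leaving out 16 cells. Splits compared counts summed per library and side, with at least 10 cells on a side or else by the median, in edgeR 4.0.16 (TMM, filterByExpr, quasi-likelihood F test, library as block, Benjamini-Hochberg over all genes, threshold 0.05, split gene left out) with R 4.3.3. Both sums of a pair come from the same library, so the block follows from the design. DESeq2 1.42.0 was an alternative. On simulated data for the Cd27 split with 8538 genes, 14.5%, 53.5% and 76.5% of 200 genes changed by log2 1, 2 and 3 were recovered, and 2, 3 and 6 of 8338 unchanged genes were called. Python 3.11.15 and scipy 1.17.1 were used otherwise. Positions came from GENCODE M21 and promoters from RefSeq.

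The genes and lists were chosen with earlier results of these data known. The text names the members, the 3 genes of highest and of lowest mean rho with each of Cd27, Ltb and Nfkbia among genes in at least 20% of thinned cells with 1 sign in 4 of 4 libraries, up to 6 genes called in each direction of a split, and list members called in a split. List members named for their rho were chosen after their values were seen, as were the runs of 8 cells and the alternatives without these runs and with another thinning.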

Additional observations from a re-analysis of the deposited data

Results flagged for a closer look

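In library 1 the rho of Ltb with H2-D1 was 0.0322, against 0.46, 0.47 and 0.42 in libraries 2 to 4, and lay far enough from the other 3 to be marked by Dixon's criterion for groups of 4. Of 51 groups of 4 examined, 1 was marked, and chance marks about 1 in 20.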

How the results depend on the processing

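Of the values set against an alternative, 1 of 110 levels, 12 of 110 shares of cells, 0 of 48 joint counts and 16 of 1242 mean rho values moved by more than 1 SD between libraries. The 12 shares moved when cells were thinned or needed at least 3 counts. Of the 45 pairs of members, 19 had a mean rho that turned in sign in at least 1 alternative. Among the 14 pairs of 1 sign in all 4 libraries this was seen for Nfkb2 and Icam1 alone, at -0.027 under another random thinning, against 0.10. In the Cd27 split the count of genes higher was 8 with DESeq2, 11 with no filter on low counts, 2 with no replicate block, 2 without the 2 runs and 0 to 1 with a library left out. The count lower was 16 with DESeq2, 26 with no filter, 1 when split at 3 counts, 0 with counts as deposited and 1 to 3 with a library left out. In the Ltb split the count higher was 10 with DESeq2, 5 with no filter, 1 with no replicate block and 3 without the runs, and the count lower 5 with DESeq2 and 3 with no filter. In the Nfkbia split the count higher was 4 with DESeq2, 6 with no filter and 0 to 2 with a library left out, and lower 1, 1 and 0 to 2. Without library 3, 2 genes were higher and 2 lower there. The log2 fold change of Nfkbia in the Ltb split passed at 1.03 with DESeq2, 1.03 with no filter, 1.05 with no replicate block and 0.95 without the runs, and that of Ltb in the Nfkbia split at 0.95 with DESeq2 and 1.01 with no filter.

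Log2 fold changes that did not pass the threshold changed sign, and some were not near 0 with all libraries, namely 0.94 for Icam1 and 0.58 for Tnfaip3 in the Nfkbia split and 0.49 for Icam1 in the Cd27 split. In the Cd27 split Nfkbia was 0.034 with counts as deposited. In the Ltb split Cd27 was 0.016 without the runs, Siva1 -0.024 at 3 counts and -0.034 without the runs, Rela -0.46 at 3 counts, -0.076 without the runs and -0.012 under another thinning, and Tnfaip3 -0.013 with no replicate block. In the Nfkbia split Icam1 was -0.019 under another thinning, Siva1 -0.13 at 3 counts and -0.096 without the runs, and Rela 0.017 with no filter, 0.12 at 3 counts and 0.063 without the runs. With a library left out, the log2 fold changes that changed sign ran as follows: in the Cd27 split Icam1 from -0.42 to 1.02 and Ltb from -0.19 to 0.16, in the Ltb split Siva1 from -0.26 to 0.59, Rela from -0.046 to 0.27 and Tnfaip3 from -0.50 to 0.49, and in the Nfkbia split Tnfaip3 from -0.31 to 1.49, Siva1 from -0.16 to 0.22 and Rela from -0.44 to 0.67. The cause was not tested. In data simulated for the Cd27 split 14.5% of genes changed by log2 1 were recovered, and the other splits were not simulated.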

Other observations

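Cd27 counts were unevenly spread over the order of cell numbers. Among 39 runs of 8 consecutive numbers with at least 5 kept cells, 7 had a Cd27 count in every kept cell and 0 had it in none. In library 3 the runs from 1 to 8, 9 to 16, 17 to 24 and 25 to 32 had Cd27 in 2 of 8, 3 of 8, 2 of 6 and 1 of 7 cells, and those from 57 to 64, 65 to 72, 73 to 80, 81 to 88 and 89 to 96 had it in 7 of 8, 6 of 8, 7 of 7, 7 of 7 and 5 of 6 cells. No source used here ties a number to a sort gate, and no cell was assigned from this pattern.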
